A study of Mus musculus with 32 samples.

Results

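The 10 genes described here mark the luminal, milk-producing layer of the mammary epithelium and its progenitors: Epcam, Cldn3, Kit, Elf5, Aldh1a3, Esr1, Pgr, Foxa1, Gata3 and Prlr. They were picked by symbol, with no measured value in the rule, and each was found in all 4 tables, as 10 of 33654 rows with a gene symbol.

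Mammary ducts have an inner luminal and an outer basal layer, and the luminal layer holds hormone-sensing cells and secretory progenitors. Hormone-sensing cells carry the estrogen receptor Esr1 and the progesterone receptor Pgr, with Foxa1 opening chromatin for the estrogen receptor. Progenitors carry the receptor kinase Kit and the factor Elf5, which the prolactin receptor Prlr induces through Jak2 and Stat5 on the way to milk secretion, while Gata3 maintains luminal fate in both.

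RNA was measured by sequencing in 32 mouse libraries, as TPM (reads per unit of gene length, with every library brought to the same sum). In the time course, breast cancer cells of the MMTV-PyMT model, in which a mammary tumor virus promoter drives the polyoma middle T oncogene, were taken at weeks 2, 3 and 4 of tumor growth (3, 4 and 4 libraries), with CD8 T cells from such tumors at the same weeks (3 libraries each). In the knockdown set, xenografts of MMTV-PyMT cells gave tumor cells labelled shMogat1 (genotype given as Mogat1 knockdown) and shCTRL (genotype given as WT), 3 libraries each, and CD8 T cells from both kinds of xenograft, 3 libraries each. Mogat1 encodes a monoacylglycerol acyltransferase, an enzyme of triacylglycerol synthesis. The labels do not give the hairpin sequences, the host strain, the number of clones or whether replicates came from separate animals, so p-values measure the spread between these libraries, which may be technical.

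Libraries held an estimated 30.2 to 57.5 megareads and 11829 to 14184 genes at 1 TPM or more. The time-course tumor libraries carried the keratin Krt8 at 326 to 754 TPM. In the knockdown tumor libraries Krt8 stood at 36.4 to 41.7 TPM in those labelled shMogat1 and at 1.31 to 1.57 TPM in those labelled shCTRL, while the mesenchymal filament Vim stood at 6174 to 6362 TPM in shMogat1 and at 8449 to 8561 TPM in shCTRL libraries. Mogat1 itself was at 0.146 to 0.624 TPM in the tumor libraries labelled shMogat1 and at 0 in all 3 labelled shCTRL, so it ran against the knockdown label at a very low level. The groups are therefore called below by their labels, and the direction of each knockdown result is that of the labels. Vim and, later, the matrix gene Fn1 were chosen after their values were seen.

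Of the 10 genes, 9 had a RefSeq promoter window in GRCm38.p6, and the 250 bases before the start are printed for the 4 genes called higher, with no overlap of libraries, both at week 4 against week 2 and in shMogat1 against shCTRL tumor cells. Capitals mark the E-box CAGGTG, read on either strand (CACCTG on the other), a motif that the zinc-finger repressors of epithelial genes are known to bind.
Epcam, chr17:87635729-87635978, plus strand: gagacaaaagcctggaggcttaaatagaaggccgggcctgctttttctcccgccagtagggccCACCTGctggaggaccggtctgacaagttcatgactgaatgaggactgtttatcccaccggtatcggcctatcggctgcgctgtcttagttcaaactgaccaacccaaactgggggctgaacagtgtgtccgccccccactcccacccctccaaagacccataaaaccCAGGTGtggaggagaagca
Elf5, first of 2 starts, chr2:103411848-103412097, plus strand: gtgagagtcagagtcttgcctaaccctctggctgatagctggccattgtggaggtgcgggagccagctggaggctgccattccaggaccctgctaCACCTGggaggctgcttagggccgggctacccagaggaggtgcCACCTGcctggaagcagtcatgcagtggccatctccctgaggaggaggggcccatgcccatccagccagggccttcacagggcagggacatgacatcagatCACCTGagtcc
Cldn3, chr5:134985964-134986213, plus strand: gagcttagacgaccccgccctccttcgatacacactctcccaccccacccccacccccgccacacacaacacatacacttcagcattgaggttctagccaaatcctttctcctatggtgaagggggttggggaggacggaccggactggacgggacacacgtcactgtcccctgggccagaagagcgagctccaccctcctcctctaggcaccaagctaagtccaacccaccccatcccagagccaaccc
Kit, first of 2 starts, chr5:75574737-75574986, plus strand: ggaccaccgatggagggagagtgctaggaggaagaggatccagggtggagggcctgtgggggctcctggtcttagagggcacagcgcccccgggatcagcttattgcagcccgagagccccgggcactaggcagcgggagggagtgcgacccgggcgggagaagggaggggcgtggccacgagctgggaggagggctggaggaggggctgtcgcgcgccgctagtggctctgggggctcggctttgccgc
In the GENCODE M21 annotation of GRCm38, Epcam spans chr17:87635979-87651129, Elf5 chr2:103411688-103450989, Cldn3 chr5:134986214-134987472 and Kit chr5:75574916-75656722, all on the plus strand. Prlr (chr15:10177238-10349180), Esr1 (chr10:4611593-5005614) and Pgr (chr9:8899833-8968611) are also on the plus strand, and Foxa1 (chr12:57540628-57546916), Gata3 (chr2:9857078-9890034) and Aldh1a3 (chr7:66390890-66427517) on the minus strand. The Epcam window held 2 E-boxes and the Elf5 window 3, and the Cldn3 and Kit windows held none. Over all 14 windows of the 9 genes, 5 held the E-box (1 each of Elf5, Epcam, Foxa1, Pgr and Prlr), and 17.2% of all 32851 windows held it. The forkhead motif TGTTTAC stood in 1 window of Foxa1 and 1 of Prlr (3.17% of all windows), and the STAT motif TTCNNNGAA in 1 window of Esr1 and 1 of Prlr (7.02% of all). The GATA motifs AGATAA or TGATAA (16.6% of all windows) and the estrogen receptor motif arm AGGTCA (14% of all) stood in none of the 14. A motif match describes the letters of a window and is not a binding site.

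In tumor cells the adhesion genes Epcam and Cldn3, the progenitor genes Kit and Elf5 and the prolactin receptor Prlr were higher at week 4 than at week 2, without overlap of libraries. Esr1, Pgr, Foxa1, Gata3 and Aldh1a3 overlapped between those weeks. Of the 9 genes that passed a filter of 1 TPM in at least 3 libraries, 6 were higher at week 4 than at week 2 and 0 were lower, at an adjusted p under 0.05 (limma on log2(TPM + 1), Benjamini-Hochberg over 14770 genes). Over all tested genes 29.2% were called higher and 17.1% lower, and the median log2 fold change was 0.81 for the 9 genes and 0.11 for all tested genes. Higher calls made up 63.1% of all calls as deposited and 50.9% after median-of-ratios rescaling, which moves the median of all tested genes to -0.01. At week 3 against week 2, 5 of the 9 were called higher and 0 lower, beside 20.1% and 4.01% of all tested genes. In that comparison higher calls made up 83.3% of all calls, and 58.1% after median-of-ratios rescaling. That rescaling moves the median of all tested genes to -0.01, against 0.14 as deposited. With it, 2 of the 9 genes stayed past the threshold, beside 1952 higher and 1407 lower of 14770 tested genes, which is a like share. At week 4 against week 3, 3 were called higher and 0 lower, beside 5.53% and 8.19% of all tested genes, with higher calls at 40.3% of all calls and at 51.5% after quantile normalization.

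**Figure D1:**
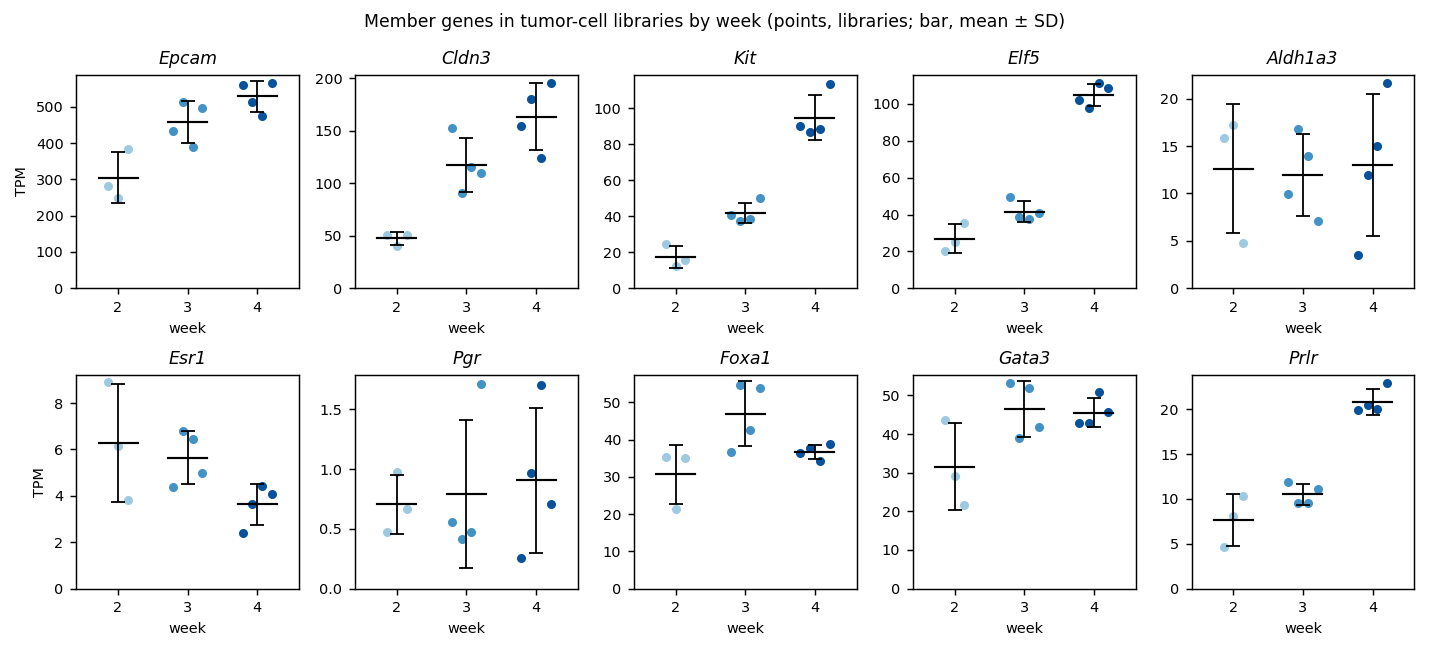
TPM of each of the 10 genes in the 11 tumor-cell time-course libraries (y axis, linear from 0, own scale per gene) by week (x axis); points are libraries and bars are the mean ± SD, drawn down to 0 where they would pass below it. Epcam, Cldn3, Kit, Elf5 and Prlr at week 4 lie above every week 2 library, and Kit, Elf5 and Prlr also above every week 3 library.

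Epcam encodes a homophilic adhesion protein of simple epithelia. It stood at 283, 249 and 384 TPM in the week 2 libraries, at 433, 513, 389 and 498 TPM at week 3, and at 561, 513, 475 and 567 TPM at week 4. All libraries of weeks 3 and 4 lay above all of week 2, and those of weeks 4 and 3 overlapped. The log2 fold change was 0.81 ± 0.15 (SE, adjusted p = 0.00136) at week 4 and 0.60 ± 0.15 (adjusted p = 0.0165) at week 3, each against week 2. The week 3 call was lost without week 2 replicate 2 (0.47, adjusted p = 0.0848) and after median-of-ratios rescaling (0.43, adjusted p = 0.0881). When each library was rescaled to 8 epithelial content genes (Krt8, Krt18, Cdh1, Esrp1, Grhl2, Rab25, Spint2 and Ap1m2), the direction turned, with -0.36 (adjusted p = 0.0220) at week 4 and -0.24 (adjusted p = 0.117) at week 3. That rescaling moves the median of all tested genes to -0.92 and -0.62 in those comparisons.

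Cldn3 is a claudin of tight junctions. Its levels were 50.9, 40.2 and 51.0 TPM at week 2, 152, 90.8, 116 and 109 TPM at week 3, and 154, 180, 123 and 196 TPM at week 4. No library of week 3 or 4 reached down to week 2. The log2 fold change was 1.75 ± 0.19 (adjusted p = 4.86e-05) at week 4 and 1.27 ± 0.19 (adjusted p = 0.00148) at week 3, each against week 2. Relative to the epithelial content genes it remained past the threshold at week 4, at 0.60 (adjusted p = 0.0101), and missed it at week 3, at 0.44 (adjusted p = 0.0569). Between weeks 4 and 3 the libraries overlapped and the change of 0.48 ± 0.17 did not pass (adjusted p = 0.0953), except without week 3 replicate 1 (0.61, adjusted p = 0.0412), after quantile normalization (adjusted p = 0.0467) and with array weights (adjusted p = 0.0225).

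Kit, the receptor for stem cell factor, had the largest fold change of the 9 tested genes at week 4 against week 2. It stood at 24.4, 12.6 and 15.5 TPM at week 2, at 40.8, 37.6, 38.7 and 50.1 TPM at week 3, and at 90.2, 86.8, 88.6 and 114 TPM at week 4. The 3 weeks did not overlap. The log2 fold change was 2.42 ± 0.19 (adjusted p = 1.11e-05) for week 4 against week 2, 1.25 ± 0.19 (adjusted p = 0.00177) for week 3 against week 2 and 1.16 ± 0.18 (adjusted p = 0.00215) for week 4 against week 3. Kit is also a defining gene of mast cells, whose 10-gene list summed to 5.21 to 7.91 TPM at week 4 and 50.9 to 86.8 TPM at week 2. Of 7 tested mast cell genes, 6 fell and 0 rose at week 4, the protease Mcpt4 standing at 0 to 0.580 TPM there and at 16.3 to 26.0 TPM at week 2, so Kit moved opposite to them. Relative to the epithelial content genes, Kit stayed past the threshold at week 4 against week 2, at 1.28 (adjusted p = 1.81e-04), and missed it at week 3 against week 2, at 0.44 (adjusted p = 0.0962).

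Elf5, an ETS factor that drives the alveolar secretory fate, was called higher in both steps. Its levels were 19.97, 25.0 and 35.5 TPM at week 2, 49.6, 38.5, 37.4 and 41.1 TPM at week 3, and 102, 98.0, 111 and 108 TPM at week 4. Week 4 lay far above both earlier weeks, and the lowest week 3 library lay just above the highest of week 2. The log2 fold change was 1.97 ± 0.17 (adjusted p = 1.37e-05) for week 4 against week 2, 0.65 ± 0.17 (adjusted p = 0.0185) for week 3 against week 2 and 1.32 ± 0.15 (adjusted p = 4.40e-04) for week 4 against week 3. The week 3 call was lost without week 2 replicate 2 (0.62, adjusted p = 0.0770) and after median-of-ratios rescaling (0.48, adjusted p = 0.104). The later step minus the earlier one was 0.68 ± 0.27 (adjusted p = 0.220), which is not past the threshold. Without week 2 replicate 1 it was 0.86 (adjusted p = 0.0178). With limma, 0 of the 9 genes passed the test of a difference between the steps (3 at an unadjusted p under 0.05), in which 0.223% of all tested genes were called higher and 2.08% lower. Without week 2 replicate 1, 4 of the 9 passed it, and 3 did with array weights. More of all tested genes passed with array weights too, 2155 of 14770. The range over all genes on leaving out a library is given with the processing results. Relative to the epithelial content genes, Elf5 stood 0.82 higher at week 4 than at week 2 (adjusted p = 4.94e-04), and turned to -0.18 at week 3 against week 2 (adjusted p = 0.357).

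Aldh1a3, a retinaldehyde dehydrogenase behind the enzyme assay for luminal progenitors, had no shift beyond its spread. It stood at 15.9, 17.2 and 4.80 TPM at week 2, at 9.96, 16.8, 13.96 and 7.09 TPM at week 3, and at 3.49, 11.99, 14.95 and 21.6 TPM at week 4. The 3 weeks covered much the same range, and the log2 fold change at week 4 against week 2 was -0.01 ± 0.55 (adjusted p = 0.990).

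Esr1 was low throughout, at 8.90, 6.14 and 3.83 TPM in week 2, 4.39, 6.79, 6.43 and 4.99 TPM in week 3 and 2.40, 3.65, 4.42 and 4.07 TPM in week 4. The weeks overlapped, and the log2 fold change of week 4 against week 2 was -0.61 ± 0.25 (adjusted p = 0.0648). It was called lower after median-of-ratios rescaling (-0.73, adjusted p = 0.0238), after quantile normalization (-0.64, adjusted p = 0.0340), relative to the epithelial content genes (-1.59, adjusted p = 6.68e-04) and without week 2 replicate 3 (-0.88, adjusted p = 0.0126). Over its other alternatives the call did not change.

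Pgr, itself induced by the estrogen receptor, stayed below the filter. It ranged over 0.477 to 0.972 TPM at week 2 (98 to 210 reads), 0.419 to 1.71 TPM at week 3 (64 to 222 reads) and 0.257 to 1.70 TPM at week 4 (45 to 270 reads). The weeks overlapped in full and no test was made.

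Foxa1 stood at 35.4, 21.5 and 35.1 TPM at week 2, 36.7, 54.7, 42.7 and 53.8 TPM at week 3 and 36.4, 37.7, 34.4 and 38.7 TPM at week 4. At week 3 it lay above all week 2 libraries, with a log2 fold change of 0.62 ± 0.18 (adjusted p = 0.0333), and the week 4 libraries overlapped those of week 2 (0.29 ± 0.18, adjusted p = 0.221) and those of week 3 (-0.33 ± 0.17, adjusted p = 0.235). The week 3 call was lost without week 2 replicate 2 (0.39, adjusted p = 0.138) and without week 3 replicates 2, 3 or 4 (0.0733, 0.0565 and 0.0871 as adjusted p), and after median-of-ratios rescaling (adjusted p = 0.0875). Relative to the epithelial content genes Foxa1 turned to -0.21 at week 3 (adjusted p = 0.329) and -0.85 at week 4 (adjusted p = 9.16e-04), each against week 2.

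Gata3 stood at 43.7, 29.2 and 21.7 TPM at week 2, 53.2, 39.0, 52.0 and 41.7 TPM at week 3 and 42.8, 42.7, 50.8 and 45.8 TPM at week 4. The highest week 2 library lay within the range of week 4, so the call of 0.57 ± 0.20 (adjusted p = 0.0365) at week 4 against week 2 rests on overlapping groups. It was lost without 6 of the 7 libraries in turn (adjusted p = 0.0549 to 0.148 over those 6), after median-of-ratios rescaling (adjusted p = 0.0624) and with the replicate block (adjusted p = 0.0551), and it turned to -0.57 relative to the epithelial content genes (adjusted p = 0.0679). Gata3 is also a T cell gene. The 8 T cell genes of the tumor libraries stood at 2.48% of their CD8 level at week 2, 1.12% at week 3 and 0.486% at week 4. At each library's own T cell percent, the mean CD8 level of Gata3 would give 0.254 to 0.842 TPM at week 2. At week 3 it would give 0.148 to 0.394 TPM, and at week 4 0.0740 to 0.162 TPM. Those tables were scaled separately, so this is a description, and the part of T cells in the Gata3 values was not tested.

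Prlr was highest at week 4. It stood at 4.60, 8.04 and 10.3 TPM at week 2, at 11.9, 9.57, 9.51 and 11.1 TPM at week 3 and at 19.9, 20.4, 20.02 and 22.9 TPM at week 4. Week 4 lay above both earlier weeks, which overlapped each other. The log2 fold change was 1.39 ± 0.20 (adjusted p = 2.81e-04) for week 4 against week 2 and 0.92 ± 0.18 (adjusted p = 0.00812) for week 4 against week 3, and 0.47 ± 0.20 (adjusted p = 0.110) for week 3 against week 2, where it passed without week 2 replicate 3 (0.69, adjusted p = 0.0248). Relative to the epithelial content genes the first fell short of the threshold, at 0.32 (adjusted p = 0.167).

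At week 4 the mean levels ran from Epcam at 529 ± 43.5 TPM (SD, n = 4) through Cldn3 at 163 ± 31.6, Elf5 at 105 ± 5.99, Kit at 94.8 ± 12.6, Gata3 at 45.5 ± 3.80, Foxa1 at 36.8 ± 1.88, Prlr at 20.8 ± 1.42, Aldh1a3 at 13.0 ± 7.52 and Esr1 at 3.63 ± 0.881 to Pgr at 0.908 ± 0.606 TPM. Elf5 and Kit overlapped, as did Prlr and Aldh1a3 and Aldh1a3 and Esr1, and the other neighbours did not. At week 2 the order by means was Epcam, Cldn3, Gata3, Foxa1, Elf5, Kit, Aldh1a3, Prlr, Esr1 and Pgr. There all neighbours from Cldn3 to Esr1 overlapped, and only Epcam and Pgr stood apart from their neighbours. At week 4 every Elf5 and Kit value lay above every Gata3 and Foxa1 value.

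Ratios within single libraries also differed by week. Elf5 as a percent of Foxa1 was 56.5% to 116% at week 2, 70.4% to 135% at week 3 and 260% to 324% at week 4. Kit as a percent of Epcam was 4.03% to 8.64% at week 2, 7.33% to 10.05% at week 3 and 16.1% to 20.04% at week 4. Weeks 4 and 2 did not overlap for either ratio. Esr1 went the other way, at 0.427% to 0.931% of Epcam at week 4 against 0.997% to 3.15% at week 2, and Gata3 overlapped, at 7.62% to 10.7% against 5.65% to 15.5% in those weeks. A ratio within a library shows unequal change between genes and not which of them moved.

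**Figure D2:**
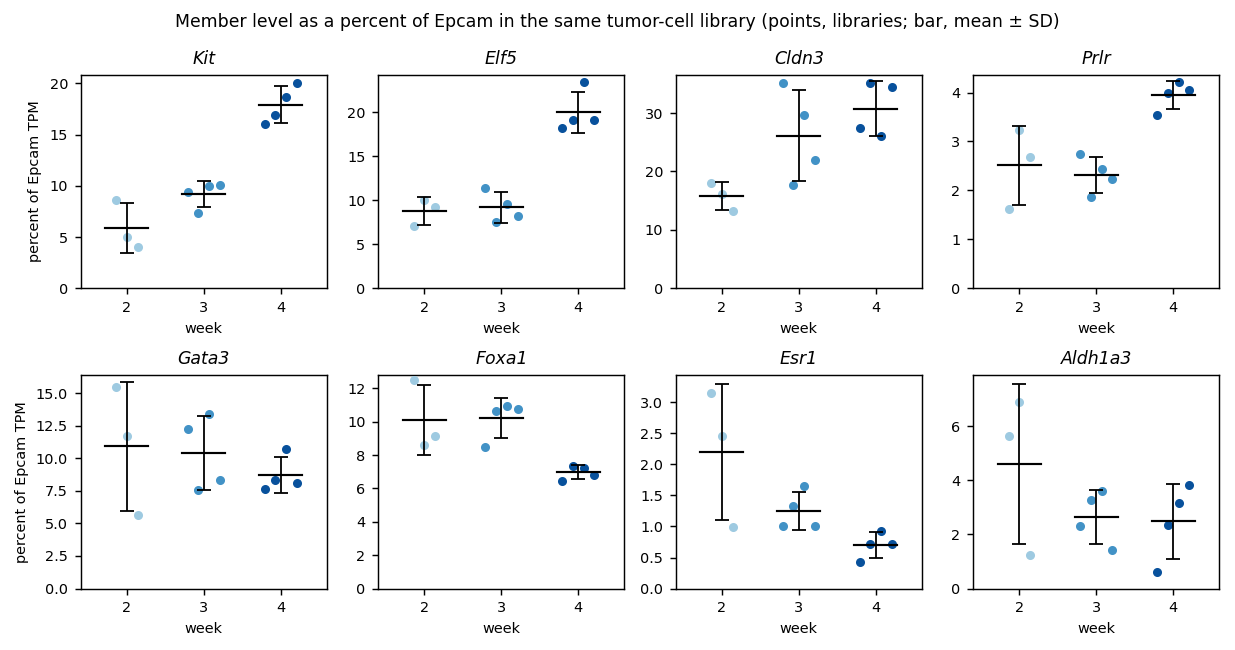
Level of 8 genes as a percent of Epcam TPM in the same tumor-cell library (y axis, linear from 0) by week (x axis); points are the 11 libraries and bars the mean ± SD. Kit and Elf5 per Epcam are highest at week 4 (16.1% to 20.04% for Kit), Foxa1 and Esr1 are lowest there, and Aldh1a3 overlaps in all weeks.

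Markers of cell content moved with these changes. All 8 epithelial content genes were higher at week 4 than at week 2, and their sum was 1784 to 2111 TPM at week 4 and 887 to 1224 TPM at week 2. Of the other lists, 7 of 8 T cell genes and 7 of 10 endothelial genes fell at week 4, and 1 endothelial gene rose. Over all tested genes 17.1% were called lower. The fibroblast list (2 of 10 lower) and the macrophage list (1 of 10 lower) stayed near or below that share. Of 2 tested adipocyte genes 1 fell. Summed T cell genes stood at 17.6 to 38.4 TPM at week 4 and 70.2 to 233 TPM at week 2, and endothelial genes at 68.9 to 83.8 TPM at week 4 and 155 to 261 TPM at week 2. Macrophage genes summed to 531 to 1685 TPM at week 4 and 780 to 2960 TPM at week 2, fibroblast genes to 2262 to 7110 and 3318 to 8443 TPM, and adipocyte genes to 16.7 to 43.3 and 62.3 to 188 TPM in the same weeks. The adipocyte hormone Adipoq was at 0 in 2 week 4 libraries, and Mcpt4 in 1, while Pecam1, Csf1r, Cd3e and Col1a1 were above 0 in all libraries. The part of these cells in the changes of the luminal genes was not tested beyond the rescaling above, and in bulk RNA a larger share of epithelial cells cannot be told apart from more RNA of these genes per cell, here and in every comparison of these libraries.

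Other genes of the luminal programs were counted from 5 lists. Beside the counts at week 4 against week 2 stand 29.2% higher and 17.1% lower of all tested genes. In the junction and epithelial list, 22 of 28 tested genes rose and 2 fell at week 4 against week 2, with a median of 1.01. Largest among the rises without overlap were the tight junction scaffold Cgn at 50.5 ± 3.76 TPM in week 4 (SD, n = 4) and 12.8 ± 1.53 TPM in week 2 (SD, n = 3), and the splicing regulators Esrp2 (log2 fold change 1.81, adjusted p = 1.30e-05) and Esrp1 (1.75, adjusted p = 8.62e-06). Among the falls was the keratin Krt19, at 4.16 ± 1.75 TPM in week 4 and 27.1 ± 10.1 TPM in week 2. In the luminal progenitor list, 10 of 16 rose and 1 fell, with a median of 1.32. The rises were led by the vitamin D hydroxylase Cyp24a1 (2.46, adjusted p = 9.52e-06), Notch1 (2.03, adjusted p = 1.30e-04) and its target Hey1 (1.53, adjusted p = 1.69e-04). All 8 epithelial content genes are also in the junction list, so those 2 counts are not separate.

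The hormone-sensing list went the other way on balance, with 2 of 8 tested genes higher and 4 lower and a median of -0.98. Each list count of this paragraph stands beside 29.2% higher and 17.1% lower of all tested genes. Areg, the estrogen-induced growth factor of the gland, fell to 13.3 ± 4.41 TPM in week 4, against 172 ± 65.4 TPM in week 2 (log2 fold change -3.59, adjusted p = 1.68e-05), and the T-box factor Tbx3 (-1.41, adjusted p = 0.00350) fell too. Prom1, a surface marker of hormone-sensing cells, rose by 1.27 (adjusted p = 4.82e-04) and Xbp1, a secretory stress factor, by 1.09 (adjusted p = 3.35e-05). Of 9 prolactin signalling genes, 1 rose (Nfib, 0.83, adjusted p = 2.85e-04) and 2 fell, the feedback inhibitor Socs1 (-2.59, adjusted p = 1.20e-04) and the kinase Jak2 (-0.997, adjusted p = 4.92e-04), with a median of -0.07. The basal list split, with 3 of 9 higher (Actg2, Krt17 and Trp63) and 3 lower. The basal keratin Krt5 fell to 1.07 ± 0.106 TPM in week 4, against 23.6 ± 1.36 TPM in week 2 (-3.57, adjusted p = 1.98e-08), and Krt14 fell to 30.5 ± 4.57 TPM, against 95.4 ± 12.7 TPM (-1.62, adjusted p = 2.68e-05).

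By step, 17 of 28 junction genes rose and 2 fell at week 3 against week 2, 7 of 16 progenitor genes rose (Notch1, Itgb3 and Hey1 with the largest fold changes), and 2 of 8 hormone-sensing genes rose (Prom1 and Xbp1) and 1 fell. At week 4 against week 3, 12 of 28 junction genes rose (led by the epithelial ETS factor Ehf, 1.10, adjusted p = 0.00436), and 3 of 16 progenitor genes rose, among them Cyp24a1 and the milk-whey-type protein Wfdc18 (1.29, adjusted p = 0.00332). Areg fell in this step to 13.3 ± 4.41 TPM, against 153 ± 49.1 TPM at week 3 (-3.43, adjusted p = 8.85e-05), as did Krt5 (-3.47, adjusted p = 1.17e-08). The prolactin signalling list had 2 of 9 higher and 2 lower in the earlier step, and 0 higher and 2 lower (Socs1 and Socs3) in the later one. The basal list had 2 of 9 higher and 0 lower in the earlier step, and 1 higher and 3 lower in the later one. Among all tested genes 20.1% were called higher and 4.01% lower in the earlier step. In the later step those shares were 5.53% and 8.19%.

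The genes most alike in profile were found by the root mean square difference of centred log2(TPM + 1) over the 11 tumor libraries. Nearest to Epcam were Rell1 (0.088) and Krt18 (0.10), nearest to Cldn3 were Slc29a4 (0.14) and B4galnt4 (0.19), and nearest to Kit were Col9a2 (0.145) and the desaturase Scd1 (0.15). Elf5 had as nearest the iron-siderophore binder Lcn2 (0.18) and Plppr3 (0.19), and Prlr had BC006965 (0.12) and Pde1a (0.13). Gata3 was nearest to Smarcb1 (0.095) and Fam3a (0.098), Esr1 to Kdelc2 (0.122) and Syne1 (0.125), and Foxa1 to Zdhhc14 (0.159) and Tec (0.165). Aldh1a3 had no close neighbour, with Loxl4 at 0.387 and Fstl1 at 0.395, beside its own spread of 0.71. Beside its own spread of 0.33, Foxa1 had no close neighbour either. These differences are absolute, so they come out smaller for genes of small spread.

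In the knockdown set the question was which luminal genes differed between tumor cells labelled shMogat1 and shCTRL. Epcam, Cldn3, Kit, Elf5 and Gata3 were higher in the shMogat1 libraries and Esr1 was lower, while Aldh1a3 and Foxa1 did not pass the test. That is 5 higher and 1 lower of 8 tested genes, beside 34.6% higher and 19.9% lower of 12936 tested genes (higher calls were 63.5% of all calls, and 45.4% after median-of-ratios rescaling). Epcam, Cldn3, Kit and Elf5 passed the filter only through the shMogat1 libraries, so their count supports nothing beyond their own values.

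**Figure D3:**
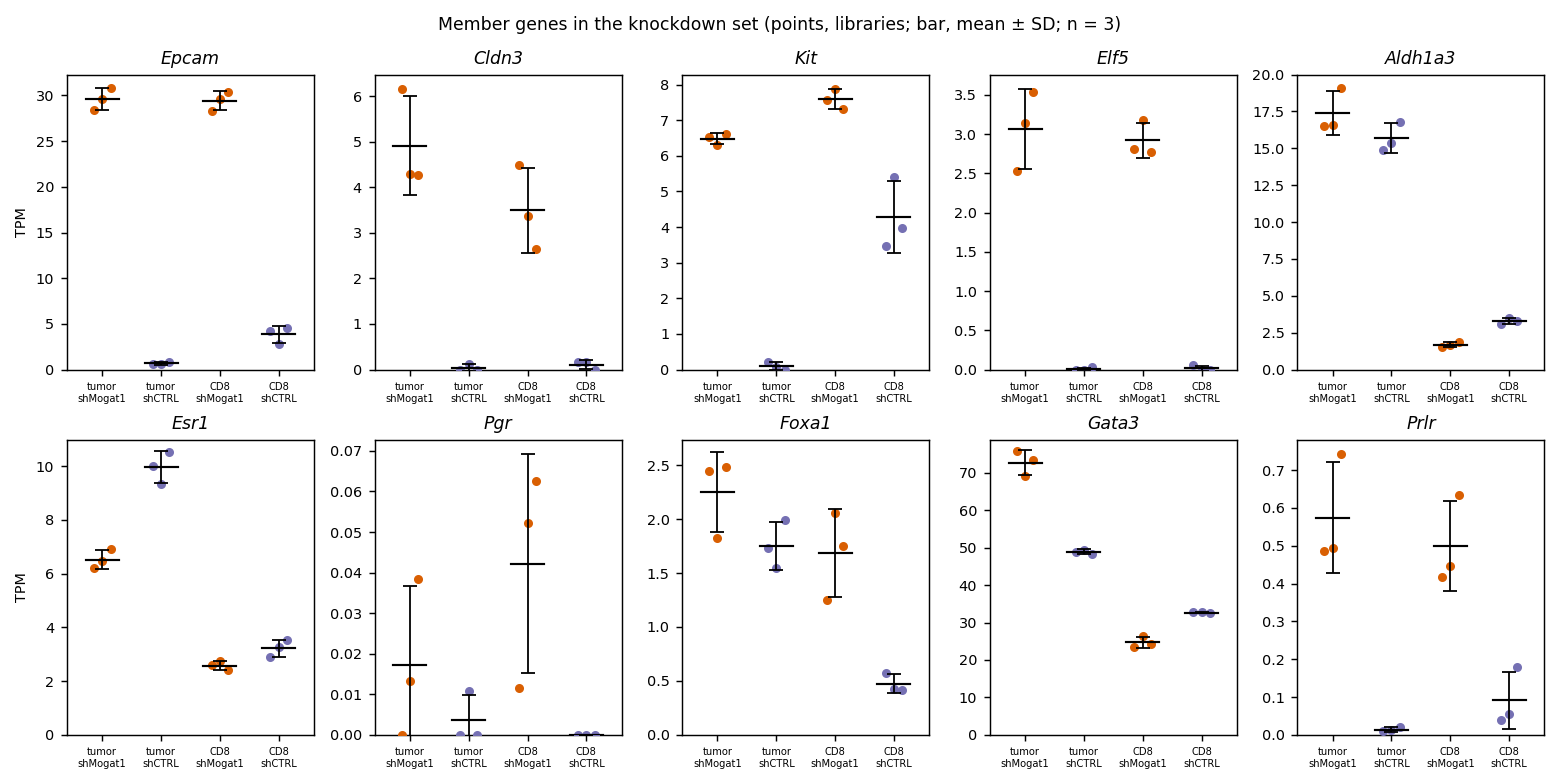
TPM of each of the 10 genes in the knockdown set (y axis, linear from 0, own scale per gene) for tumor cells labelled shMogat1 and shCTRL and CD8 T cells from shMogat1 and shCTRL xenografts (x axis, 3 libraries each); points are libraries and bars the mean ± SD, drawn down to 0 where they would pass below it. Epcam, Cldn3 and Elf5 are high in both shMogat1 groups and near 0 in tumor shCTRL, and Gata3 is higher in shMogat1 among tumor cells and lower among CD8 T cells.

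Epcam stood at 28.4, 29.6 and 30.8 TPM in shMogat1 tumor libraries (608 to 870 reads), against 0.653, 0.560 and 0.864 TPM in shCTRL (14 to 24 reads). The log2 fold change on the log2(TPM + 1) scale was 4.18 ± 0.08 (adjusted p = 2.01e-08). The ratio of read rates was 42.5 (nominal 95% exact interval 32.8 to 56.2, counting error only). Both mates of a fragment entered as separate reads, so this interval and those for Cldn3 and Elf5 below are too narrow. Even the shMogat1 level lay far below the lowest time-course library of 249 TPM, across tables scaled separately.

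Cldn3 and Elf5 were near the floor of detection in shCTRL. Cldn3 had 6.16, 4.29 and 4.27 TPM in shMogat1 libraries (109, 54 and 74 reads), against 0, 0.131 and 0 TPM in shCTRL (0, 2 and 0 reads). Elf5 had 2.53, 3.15 and 3.54 TPM in shMogat1 libraries (97, 86 and 133 reads), against 0, 0 and 0.0270 TPM in shCTRL (0, 0 and 1 read). Both were called higher (adjusted p = 4.89e-06 and 8.07e-06). The ratios of read rates were 127 for Cldn3 (nominal 95% exact interval 34.8 to 1056) and 339 for Elf5 (60.4 to 13438), again with mates counted as separate reads.

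Kit had 6.52, 6.30 and 6.61 TPM in shMogat1 libraries and 0.220, 0.0599 and 0 TPM in shCTRL (adjusted p = 4.97e-07), and its read numbers could not be recovered. Prlr stayed under the filter, at 0.487, 0.494 and 0.743 TPM in shMogat1 libraries (97, 70 and 145 reads), against 0.00947, 0.0116 and 0.0209 TPM in shCTRL (2, 2 and 4 reads). Its groups did not overlap, and no test was made.

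The remaining genes were carried by both groups. Gata3 stood at 75.8, 69.0 and 73.3 TPM in shMogat1 and at 48.9, 49.5 and 48.3 TPM in shCTRL libraries, a log2 fold change of 0.56 ± 0.04 (adjusted p = 8.86e-06) that turned to -3.94 relative to the epithelial content genes, a rescaling that puts the median of all tested genes at -4.19. Esr1 stood at 6.20, 6.45 and 6.90 TPM in shMogat1 and at 10.02, 9.33 and 10.5 TPM in shCTRL libraries (-0.54 ± 0.07, adjusted p = 3.26e-04). For these 2 genes every library of one group lay beyond the other group.

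Aldh1a3 overlapped, at 16.5, 16.6 and 19.1 TPM in shMogat1 and 14.9, 15.4 and 16.8 TPM in shCTRL libraries (0.14 ± 0.07, adjusted p = 0.131). Foxa1 overlapped too, at 2.45, 1.82 and 2.48 TPM in shMogat1 and 1.73, 1.55 and 1.99 TPM in shCTRL libraries (0.24 ± 0.12, adjusted p = 0.145, and 0.0491 without shMogat1 replicate 2). Pgr had 0 to 8 reads per library in shMogat1 and 0 to 2 in shCTRL. Relative to Epcam, the shMogat1 libraries held far more Gata3 (233% to 267%) and Esr1 (21.8% to 22.4%) than the week 4 libraries of the time course.

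The epithelial content genes also differed by label. All 8 epithelial content genes were higher in shMogat1 tumor libraries, with sums of 929 to 976 TPM in shMogat1 and 204 to 218 TPM in shCTRL. Most of both sums was Krt18, at 844 to 886 TPM in shMogat1 and 198 to 213 TPM in shCTRL. Among other cells, 10 of 10 macrophage genes and 5 of 6 tested T cell genes were also higher in shMogat1, with macrophage sums of 700 to 720 TPM in shMogat1 and 365 to 392 TPM in shCTRL. T cell genes summed to 16.01 to 16.5 TPM in shMogat1 and 3.93 to 6.38 TPM in shCTRL. Some of the tested epithelial and T cell genes passed the filter only through the shMogat1 libraries, so nothing is read from their counts. Of fibroblast genes 5 of 10 were higher and 4 lower, of 6 tested endothelial genes 1 higher and 1 lower, of 2 tested mast cell genes 1 higher and 1 lower, and the 1 tested adipocyte gene was not called. Their sums in shMogat1 and shCTRL were 4293 to 4382 and 7186 to 7225 TPM for fibroblast, 72.5 to 75.0 and 68.4 to 74.2 TPM for endothelial, 6.49 to 8.01 and 7.42 to 9.43 TPM for mast cell, and 3.03 to 6.66 and 2.33 to 3.06 TPM for adipocyte genes. Cma1 was at 0 in 1 shMogat1 and 2 shCTRL libraries, and Adipoq in 1 of each. Among all tested genes 34.6% were called higher and 19.9% lower, and the part of these cells in the results was not tested.

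Of the luminal lists, 21 of 23 tested junction genes were higher in shMogat1 and 1, Cldn1, was lower (median 1.57 beside 0.07 for all tested genes). Krt8 had 39.7 ± 2.83 TPM in shMogat1 and 1.45 ± 0.127 TPM in shCTRL (SD, n = 3 each), Ehf had 7.74 ± 0.870 and 0.0208 ± 0.0361 TPM, and the protease St14 had 6.73 ± 0.584 and 0.0789 ± 0.0202 TPM. Of 13 tested progenitor genes 10 were higher and 2 lower, with the iron carrier Trf at 497 ± 2.13 TPM in shMogat1 and 13.2 ± 0.334 TPM in shCTRL, and Sox9 at 228 ± 2.41 and 381 ± 6.22 TPM. Of 8 tested hormone-sensing genes 3 were higher and 5 lower, with Ly6d at 20.7 ± 3.67 TPM in shMogat1 and 0.424 ± 0.205 TPM in shCTRL and Msx2 at 0.772 ± 0.110 and 3.92 ± 0.360 TPM. Of 9 prolactin signalling genes 2 were higher (Cish and Jak2) and 4 lower, and of 9 basal genes 4 were higher (Krt14, Krt17 and Krt5 with the largest fold changes) and 3 lower (Actg2, Cnn1 and Trp63). Many of these genes also passed the filter through one group alone. Each list count stands beside 34.6% higher and 19.9% lower of all tested genes.

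**Figure D4:**
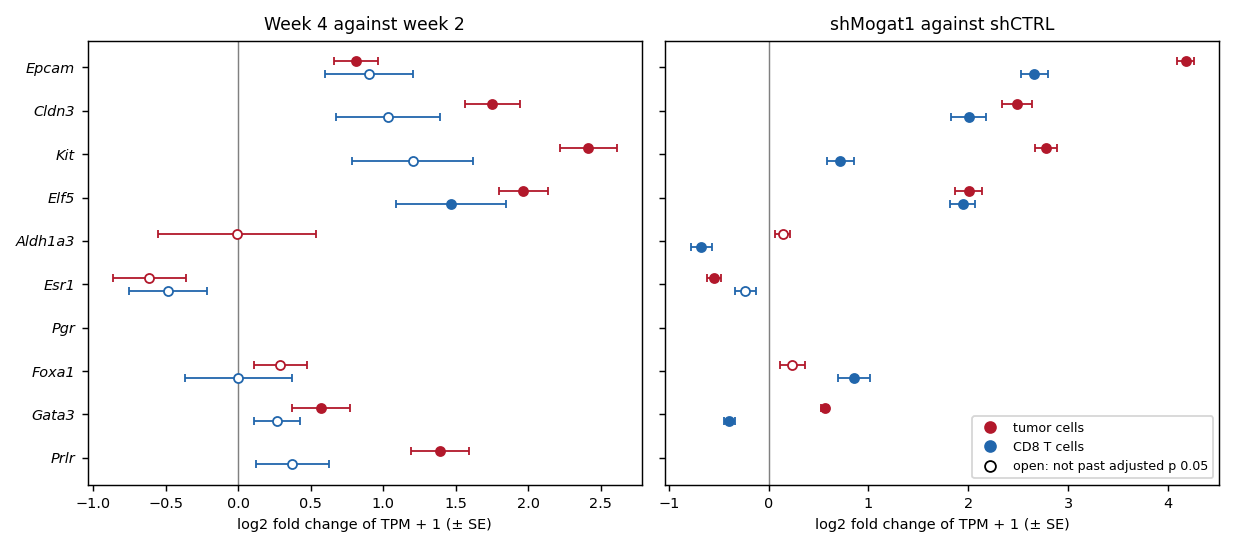
Log2 fold change of TPM + 1 (x axis) with its SE for each gene (y axis), at week 4 against week 2 (left) and shMogat1 against shCTRL (right); red points are tumor cells, blue points CD8 T cells, filled where the adjusted p was under 0.05, and genes below the filter have no point. Epcam, Cldn3, Kit and Elf5 lie right of 0 in all 4 comparisons, and Gata3 lies on opposite sides in the knockdown set.

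The CD8 T cell libraries served as a check of luminal transcripts carried over into sorted T cells. In the time course Epcam stood at 12.6, 16.1 and 29.97 TPM in CD8 libraries of week 2, 36.2, 49.1 and 27.6 TPM at week 3 and 38.5, 37.9 and 29.5 TPM at week 4. As means these were 6.40%, 8.21% and 6.67% of the tumor-cell level at weeks 2, 3 and 4, across tables scaled separately. Cldn3 (3.56%, 6.76% and 2.66%), Elf5 (3.98%, 8.98% and 4.27%), Foxa1 (4.21%, 7.36% and 3.85%), Prlr (6.14%, 10.1% and 4.52%) and Krt8 (4.78%, 6.97% and 4.96%) stood at like shares.

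Kit, Esr1 and Gata3 stood at larger shares. Kit was at 27.9%, 17.4% and 11.5% of its tumor-cell level at weeks 2, 3 and 4, Esr1 at 44.1%, 49.5% and 47.4%, and Gata3 at 62.2%, 51.4% and 52.5%. Gata3 had 18.4 to 21.0 TPM in week 2, 19.1 to 28.3 TPM in week 3 and 20.8 to 27.0 TPM in week 4 CD8 libraries. Aldh1a3 was at 3.30%, 5.69% and 2.41%.

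Of 8 tested genes in CD8 cells, 1 was called at week 4 against week 2, beside 10.3% higher and 7.18% lower of 13350 tested genes (higher calls were 59.0% of all calls, and 47.9% after quantile normalization). It was Elf5, at 6.15, 2.40 and 4.90 TPM in week 4 and 0.207, 0.724 and 2.27 TPM in week 2 (1.47 ± 0.38, adjusted p = 0.0301), and the call was lost without week 2 replicate 1 or 2 and without week 4 replicate 2 or 4 (adjusted p = 0.0608 to 0.107). Epcam (0.90 ± 0.30, adjusted p = 0.0689) and Kit (1.203 ± 0.42, adjusted p = 0.0758) did not pass, though Epcam did without week 2 replicate 3 (adjusted p = 0.0137) and Kit without week 2 replicate 2 (adjusted p = 0.0233). Cldn3 did not pass either (1.03 ± 0.36, adjusted p = 0.0740, and 0.0497 without week 2 replicate 3), though its libraries did not overlap, at 5.12, 3.60 and 4.31 TPM in week 4 and 0.823, 1.74 and 2.49 TPM in week 2. The epithelial content genes of these libraries summed to 191 to 258 TPM in week 4 and 111 to 145 TPM in week 2, also without overlap. Only 1 of the 8 was called higher, Cdh1, at 109 ± 34.4 TPM in week 4 and 23.3 ± 4.22 TPM in week 2 (SD, n = 3 each). Most of the difference between the sums was Cdh1. The part of the epithelial content genes in the Elf5 call was not tested. At week 3 against week 2, limma called 0 of the 8 genes (4 at an unadjusted p under 0.05), beside 0.0449% higher and 0% lower of all tested genes, and at week 4 against week 3 it called 0 of the 8 (1 at an unadjusted p under 0.05), beside 1.38% higher and 1.29% lower (higher calls were 51.7% of all calls, and 67.6% after median-of-ratios rescaling). With array weights 3 and 2 of the genes were called in those comparisons, beside 869 and 3661 of the 13350 tested genes.

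**Figure D5:**
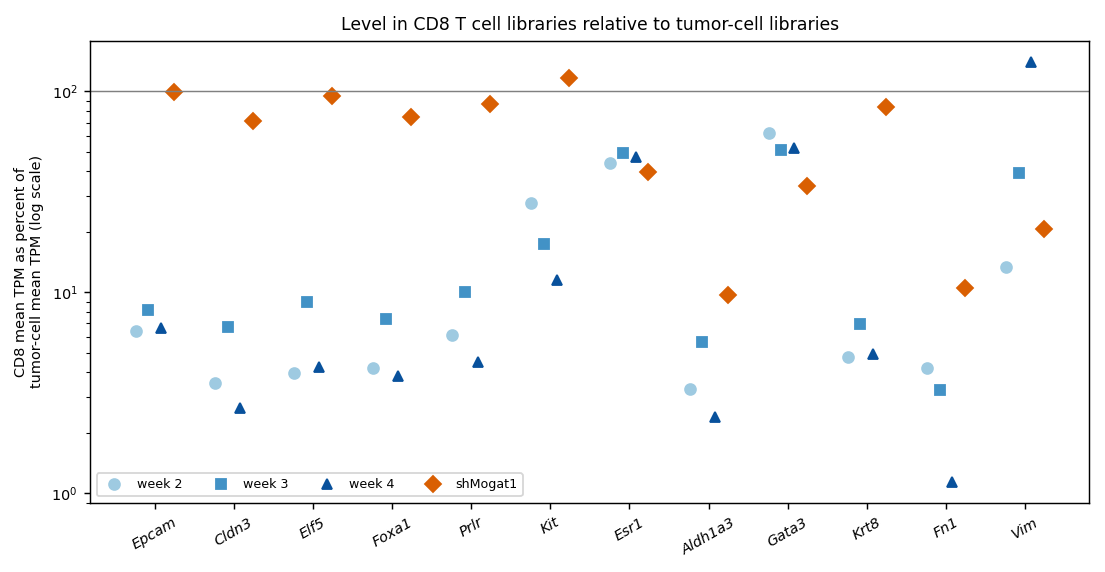
Mean TPM in CD8 T cell libraries as a percent of the mean in tumor-cell libraries of the same week or of shMogat1 (y axis, log scale) for 9 of the genes and for Krt8, Fn1 and Vim (x axis); each point is a ratio of 2 group means and the line marks equal levels. In the time course Epcam lies at 6.40% to 8.21%, and in shMogat1 at 99.5%, while Fn1 lies at 10.5% there.

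In the knockdown set the CD8 libraries carried as much of some luminal genes as the tumor libraries. Epcam stood at 28.3, 29.7 and 30.3 TPM in shMogat1 CD8 libraries, against 4.24, 2.82 and 4.57 TPM in shCTRL ones (2.66 ± 0.14, adjusted p = 5.36e-06). The shMogat1 CD8 mean was 99.5% of the shMogat1 tumor-cell mean, and the shCTRL CD8 level was above every shCTRL tumor library. Elf5 (95.1%), Prlr (86.9%), Krt8 (83.6%), Foxa1 (75.0%) and Cldn3 (71.3%) also stood far above their time-course shares in shMogat1, and Kit was at 117%. The summed epithelial content list differed less from its time-course shares. Most of its shMogat1 tumor sum was Krt18, as given above, while Krt8 of the same list stood at 83.6%. Its mean sum was 231 TPM in CD8 and 946 TPM in tumor libraries of shMogat1. In the time course those means were 126 and 1020 TPM at week 2, 225 and 1643 TPM at week 3, and 234 and 1966 TPM at week 4.

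Fn1, Vim, Aldh1a3, Gata3 and Esr1 stood at smaller shares. Fn1 was at 10.5% and Vim at 20.6% of the tumor-cell level in shMogat1 CD8 libraries, Aldh1a3 at 9.66%, Gata3 at 33.9% and Esr1 at 39.6%. The luminal genes and Fn1 therefore did not stand in the ratio they had in the tumor libraries. The T cell genes of the tumor libraries were at 0.367% of the CD8 level in shMogat1 and 0.126% in shCTRL. Where the luminal transcripts in the CD8 libraries came from was not tested.

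Between shMogat1 and shCTRL CD8 libraries, 5 of 8 tested genes were higher and 2 lower, beside 16.6% higher and 26.2% lower of 13742 tested genes (higher calls were 38.8% of all calls, and 54.0% after quantile normalization). Beside Epcam the higher genes were Cldn3, Elf5, Kit and Foxa1. Cldn3, Elf5 and Foxa1 passed the filter only through the shMogat1 libraries, so nothing is read from the count. Elf5 stood at 2.81, 3.18 and 2.77 TPM in shMogat1 (80 to 88 reads), against 0.0522, 0 and 0 TPM in shCTRL (0 to 2 reads), and Kit at 7.57, 7.88 and 7.32 TPM, against 3.46, 5.40 and 3.96 TPM (0.72 ± 0.13, adjusted p = 0.00381).

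The lower genes were Aldh1a3 and Gata3. Aldh1a3 had 1.51, 1.69 and 1.84 TPM in shMogat1 and 3.07, 3.47 and 3.28 TPM in shCTRL CD8 libraries (-0.67 ± 0.11, adjusted p = 0.00183). Gata3 had 23.5, 26.3 and 24.2 TPM in shMogat1 and 32.7, 32.7 and 32.5 TPM in shCTRL CD8 libraries (-0.39 ± 0.05, adjusted p = 7.65e-04), opposite to its direction in tumor cells. Fibroblast genes moved in the same direction, with 8 of 10 lower and 0 higher in shMogat1 (sums of 1753 to 1821 TPM in shMogat1 and 3077 to 3203 TPM in shCTRL). The epithelial content genes moved the opposite way, with 7 of 8 higher and 1, Cdh1, lower (sums of 225 to 236 and 117 to 127 TPM). Esrp1, 1 of those 7, passed the filter only through the shMogat1 libraries. Of 7 tested mast cell genes 5 were lower and 0 higher, with sums of 13.2 to 17.4 TPM in shMogat1 and 36.4 to 39.0 TPM in shCTRL. Of macrophage genes 6 of 10 were higher and 1 lower (sums of 2545 to 2662 and 2333 to 2378 TPM), of 8 tested endothelial genes 2 higher and 1 lower (109 to 110 and 97.5 to 103 TPM), and the 1 tested adipocyte gene was higher (18.5 to 21.9 and 12.7 to 18.6 TPM) in shMogat1 and shCTRL CD8 libraries. Among all tested genes 16.6% were called higher and 26.2% lower, and the part of these cells in the results was not tested.

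Luminal list genes in the CD8 libraries were counted the same way. Between shMogat1 and shCTRL, 16 of 23 tested junction genes were higher and 3 lower, with a median of 0.90 beside -0.05 for all tested genes, and Krt8 stood at 33.2 ± 1.46 TPM in shMogat1 and 2.18 ± 0.234 TPM in shCTRL (SD, n = 3 each). Of 11 progenitor genes 4 were higher and 2 lower, with Trf at 416 ± 5.98 TPM in shMogat1 and 95.6 ± 3.39 TPM in shCTRL. Of 8 hormone-sensing genes 2 were higher and 2 lower, and Areg, which T cells and other leukocytes also make, stood at 82.9 ± 4.62 TPM in shMogat1 and 188 ± 10.9 TPM in shCTRL. Of 9 prolactin signalling genes 6 were higher, among them Stat5a (0.67, adjusted p = 2.34e-05), which also signals for cytokine receptors of T cells, and 2 lower. Of 7 basal genes 3 were higher and 0 lower, beside 16.6% higher and 26.2% lower of all tested genes. Some of these genes, Ehf and Esrp1 of the junction list among them, passed the filter only through the shMogat1 libraries, so nothing is read from these counts and that median. At week 4 against week 2 in CD8 cells, 5 of 24 junction genes were higher and 1 lower, 4 of 7 hormone-sensing genes were higher and 0 lower, and 1 of 10 progenitor genes was higher and 0 lower. Beside them, 10.3% of all tested genes were called higher and 7.18% lower. The hormone-sensing rises were led by Calca (6.40 ± 1.10 TPM in week 4, 1.35 ± 0.628 TPM in week 2) and Tnfsf11 (25.0 ± 5.51 and 11.1 ± 2.31 TPM). Which cells these transcripts came from was not tested.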

How the data were processed

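The 4 tables hold TPM per gene symbol as the authors deposited them, 32 libraries in all. Per the submitters' processing notes, FastQC, Trim Galore and HISAT2 were used with the mm10 build, with no versions; the read counter, annotation and gene lengths are not given in the sources used here. Libraries were stranded mRNA libraries from TRIZOL extracts, per the labels' protocols. Of 33681 rows in a table, 27 with a date in place of a symbol were left out (at most 0.184% of a library's TPM). The tables were scaled separately, so tests stay within a table and levels across tables are descriptions.

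Tests ran in R 4.3.3 with limma 3.58.1 (lmFit, then eBayes, trend=TRUE) over log2(TPM + 1) of genes at 1 TPM or more in at least 3 libraries of a table, with all groups of a table in 1 fit and Benjamini-Hochberg adjustment over all genes tested; adjusted p under 0.05 is past the threshold. Fold changes on this scale understate changes of low genes. Likeness of profiles is the root mean square difference of log2(TPM + 1), centred per gene. The fit was checked on simulated data. Read numbers of 7 of the genes were recovered from the steps between TPM values, count both mates, cover counting error only and entered no test; depth also used GENCODE M21 exon lengths, which the authors do not name. Promoter windows are RefSeq's (GRCm38.p6). Python 3.11.15 with pandas 2.3.3, numpy 2.4.6, scipy 1.17.1 and matplotlib 3.10.9 made the summaries and plots.

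The genes, the lists and the tests were chosen with earlier results of these data known. All 10 genes are named; list genes are named by the largest fold changes past the threshold with no overlap of libraries (up to 3 in each direction per list), though not all of these are printed for every comparison and some list genes are not reported here. Alternatives were other scalings, pseudocount, filter, variance model, replicate block and leaving out each library.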

Additional observations from a re-analysis of the deposited data

Results flagged for a closer look

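Kit in week 4 replicate 4 of the tumor cells, at 114 TPM, stood far from the other 3 libraries of its week (86.8 to 90.2 TPM). Pgr in week 3 replicate 4, at 1.71 TPM, stood far from its 3 companions (0.419 to 0.557 TPM). 20 pairs of a gene and a group of 4 libraries were looked at, and chance alone marks about 1 in 20. The Kit calls held without that library.

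Gata3 moved in opposite directions between the labels, with a log2 fold change of 0.56 for shMogat1 against shCTRL in tumor cells and -0.39 in CD8 T cells, and no library overlapped in either table. The difference between the cell types was not tested, since the tables were scaled separately.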

How the results depend on the processing

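Genes counted here are those past the threshold. At week 4 against week 2 in tumor cells, 6 of the luminal genes passed, and 5 to 6 did when each library was left out in turn (5317 to 7803 of all genes). At week 3 against week 2, 5 passed, 2 after median-of-ratios rescaling, 3 after quantile normalization, 3 with array weights, 2 with only the 2 weeks compared and 1 after rescaling to the epithelial content list; leaving out a library gave 2 to 6, with 2 without week 2 replicate 2. All genes past the threshold there were 3560, 1591 with only the 2 weeks compared, 8069 after epithelial rescaling (10823 at week 4 against week 2, where the deposited scale gave 6843) and 1382 to 5762 leaving out a library. For week 3 against week 2, median-of-ratios rescaling called 1952 of all genes higher and 1407 lower, and quantile normalization 2070 and 1207. At week 4 against week 3, 3 passed, 5 with array weights and 3 to 4 leaving out a library; all genes were 2026, 4614 with array weights, 3868 with only the 2 weeks compared and 1253 to 1655 leaving out a library. For the difference between the steps, 0 passed, 3 with array weights and 0 to 4 leaving out a library; all genes were 340, 194 with no filter, 2155 with array weights, 36 after epithelial rescaling and 67 to 3544 leaving out a library.

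In the knockdown set, 6 luminal genes passed in tumor cells (6 to 7 leaving out a library) and 7 in CD8 cells (7 each time); all genes in tumor cells were 7052, and 12821 after epithelial rescaling. In CD8 cells at week 4 against week 2, 1 passed, 0 with no filter, 5 with array weights, 0 with only the 2 weeks compared and 0 to 3 leaving out a library; all genes were 2335, 5910 with array weights, 1333 with only the 2 weeks compared and 926 to 3097 leaving out a library. At week 3 against week 2 in CD8 cells, 0 passed and 3 with array weights; all genes were 6, 869 with array weights and 5 to 10 leaving out a library. At week 4 against week 3, 0 passed and 2 with array weights; all genes were 356, 605 after quantile normalization, 234 with no filter, 3661 with array weights and 46 to 676 leaving out a library. Left-out fits kept the genes tested in the full table.

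Rescaling to the epithelial content list turned Epcam (-0.36 at week 4 and -0.24 at week 3, against week 2), Foxa1 (-0.85 and -0.21), Gata3 (-0.57 at week 4), Elf5 (-0.18 at week 3) and, in shMogat1 against shCTRL tumor cells, Aldh1a3 (-4.11), Foxa1 (-2.72) and Gata3 (-3.94). The list itself was higher in each of these comparisons, and the genes that turned were higher by less than the list. At week 4 against week 2, Cldn3, Kit, Elf5 and Prlr kept their sign under it. The summed epithelial content list of CD8 libraries was 24.5% of the tumor level in shMogat1 and 26.4% after joint median-of-ratios rescaling, where most of the tumor sum was Krt18.

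Between groups of the same table, deviations from the group mean of same-numbered libraries correlated at -0.26 to 0.43. With so few libraries this cannot decide whether the numbers pair them. Pairing of tumor and CD8 libraries by number was not examined. With the replicate block 2 luminal genes passed at week 3 against week 2 in tumor cells and 0 at week 4 against week 2 in CD8 cells; all genes were 106 for the difference between steps, and in CD8 cells 1422 at week 4 against week 2, 0 at week 3 against week 2 and 3 at week 4 against week 3. Foxa1 in shMogat1 against shCTRL CD8 cells missed the threshold under the block (adjusted p = 0.0508).

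Depth limits Pgr, Prlr, Cldn3 and Elf5 in shCTRL libraries, where single reads decide the value.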
